A study of Mus musculus with 13 samples.

Results

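The comparison is between Ly6D+Gfra2+ and Ly6D+Gfra2- common lymphoid progenitors (CLP), bone marrow cells that give rise to lymphocytes, and it covers 7 of the 13 RNA sequencing libraries of the series. Members were taken by their titles, which name 3 libraries of Ly6D+Gfra2+ cells (replicates 4, 5 and 6) and 4 of Ly6D+Gfra2- cells (replicates 1, 2, 5 and 6). The other 6 libraries, of Ly6D-Gfra2- cells, entered the same statistical fit and are used as a reference level. Every group came from bone marrow of wild-type C57BL/6 mice and was sorted by flow cytometry with no treatment named. Age, sex, the number of cells and whether replicates are separate mice are not stated, and the p-values therefore describe the spread of these particular libraries, which may be technical. Each library's name begins with P or T, a prefix that the labels do not explain. All 3 Ly6D+Gfra2+ libraries have prefix T, as do Ly6D+Gfra2- replicates 5 and 6, whereas Ly6D+Gfra2- replicates 1 and 2 have prefix P.

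Ly6D is a small surface protein that marks lymphoid progenitors turning toward the B lineage. Gfra2 is the ligand-binding part of a receptor for neurturin, a member of the GDNF family of growth factors, and in neurons it signals together with the receptor tyrosine kinase Ret. In early B-cell development the transcription factors E2A, Ebf1, Foxo1 and Pax5 act in sequence. They switch on the recombinase that assembles immunoglobulin genes and the pre-B-cell receptor that tests the first rearranged chain. The question is which transcripts change with Gfra2 once Ly6D is present.

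Total counts were 9287598, 9771228 and 9400568 in the Ly6D+Gfra2+ libraries and between 9200722 and 20098978 in the Ly6D+Gfra2- libraries. Levels are counts in every 1000000 of the scaled library size (CPM). They are given for Ly6D+Gfra2+ replicates 4, 5 and 6 and then for Ly6D+Gfra2- replicates 1, 2, 5 and 6. Fold changes are log2 values of Ly6D+Gfra2+ over Ly6D+Gfra2-, each with its standard error (SE). They come from the fit of all 13 libraries, which has a term for prefix, so they can differ from the ratio of the printed levels. The CLP genes Il7r, Flt3 and Kit were detected in all 7 libraries, at 542 CPM or more for Il7r, 845 or more for Flt3 and 93.1 or more for Kit. Gfra2 stood at 287, 515 and 365 CPM in Ly6D+Gfra2+ and at 0.195, 14.7, 0.28 and 4.57 CPM in Ly6D+Gfra2-. The sorting protein's own transcript thus separated the groups without overlap and rose by 7.14 (SE 1.42; adjusted p = 0.0428), and since cells were sorted on it this checks the labels only. Ly6d stood at 171, 283 and 205 CPM against 158, 169, 349 and 507 CPM, and the groups overlapped (log2 fold change -0.11, SE 1.18; adjusted p = 0.981). Within prefix T there was no overlap, as all 3 Ly6D+Gfra2+ libraries lay below Ly6D+Gfra2- replicates 5 and 6. The log2 fold change of Ly6d there was -0.97 (SE 0.36; adjusted p = 0.439). It was -0.96 with the 7 libraries only (adjusted p = 0.925), and Ly6d passed in neither fit. One library of the reference group, labelled Ly6D-Gfra2- replicate 3, held 213 CPM of Ly6d. The other 5 of its label held at most 8.30 CPM. Leaving replicate 3 out moved the log2 fold change of Ly6d to -0.80 (SE 0.54; adjusted p = 0.597). Values without that library are given for some genes, and the named genes that lost their call without it are listed further below. Rag1, Cd79a and Pax5 were taken as further markers of Ly6D+Gfra2+ cells with earlier results of these data known, so they are no independent check. Each was higher in all 3 Ly6D+Gfra2+ libraries than in any of the 4 Ly6D+Gfra2- libraries, beside 4.0% of all tested genes.

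Markers of other cells were present in part. Cd3g and Ncr1, of T and NK cells, had 0 counts in the 7 libraries, Cd3e did not exceed 0.974 CPM and Klrb1c, of NK cells, did not exceed 4.76 CPM. Lat, an adaptor of T-cell signalling, was at 46.2 to 73.5 CPM in Ly6D+Gfra2+ and at 28.4 to 98.4 CPM in Ly6D+Gfra2-. Ly6D+Gfra2+ replicate 6 held 35.3 CPM of the erythroid gene Klf1 and 37.6 CPM of the stromal gene Cxcl12, while no other of the 7 exceeded 7.31 CPM of Klf1 or 0.56 CPM of Cxcl12. The endothelial gene Cdh5 was at 13.4 CPM in that library and at 30.5 CPM in Ly6D+Gfra2- replicate 5. The erythroid, megakaryocyte and stromal markers Gata1, Pf4, Col1a1 and Lepr were at 0 in Ly6D+Gfra2+ replicate 6. Hba-a1 and Hbb-bs, of erythroid cells, were at 4.77 and 8.13 CPM there, and at 9.54 and 10.1 CPM in Ly6D+Gfra2- replicate 2. Sdc1, of plasma cells, was at 10.8, 188 and 69.4 CPM against 62.2 to 118 CPM, and the myeloid gene Lyz2 was at 74.6 to 117 CPM against 30.5 to 74.7 CPM. Other myeloid markers did not share this. Csf1r was at 4.23 to 23.9 CPM against 6.09 to 54.3 CPM and Mpo at 97.8 to 312 CPM against 289 to 506 CPM. Elane, S100a8 and S100a9 did not exceed 5.96 CPM. The part of such cells in the results was not tested.

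A gene was called at a Benjamini-Hochberg adjusted p under 0.05 in edgeR's quasi-likelihood test over 12722 genes. By this rule 26 genes rose and 26 fell in Ly6D+Gfra2+, which is 0.204% of the tested genes in each direction, and 1677 genes had an unadjusted p under 0.05. Scaling by library size alone gave 15 higher and 33 lower, and it moved the median of all genes by -0.17. In 4.0% of all tested genes the 3 Ly6D+Gfra2+ libraries lay above all 4 Ly6D+Gfra2- libraries, and in 5.71% they lay below, and 50 of the 52 called genes showed no such overlap. Within prefix T, where 3 libraries meet 2, 9 genes were called (0.0707% of 12728), and 6 of them were among the 52. With only the 7 libraries of these groups 8 genes were called out of 11608. Both of these smaller fits called the same 7 genes, Runx2, Rag1, Slc25a1, Siglech, Ebf1, Pde2a and Igll1, of which all but Siglech and Ebf1 were also called with 13 libraries. The limma voom test, run with quality weights, called 28 higher genes and 1 lower. Leaving out single libraries moved the count between 12 (without Ly6D+Gfra2- replicate 5) and 184 (without Ly6D+Gfra2+ replicate 6), and 10 genes were called whichever library was left out. Most of the 52 calls thus did not hold in every refit, also where a gene is given below without these values.

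**Figure D1:**
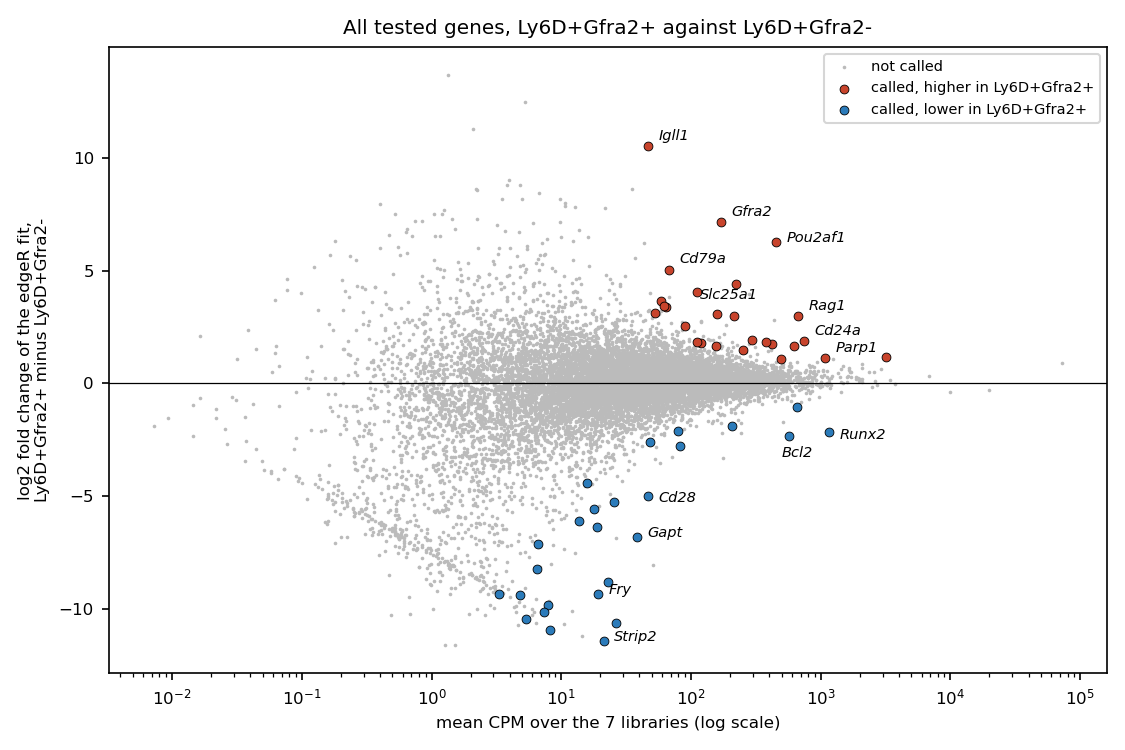
Each point is 1 of the 12722 tested genes, with the mean CPM over the 7 libraries on a log axis and the log2 fold change of Ly6D+Gfra2+ over Ly6D+Gfra2- on the vertical axis. The 26 genes called higher (red) include Igll1, Gfra2 and Pou2af1, and the 26 called lower (blue) include abundant genes such as Runx2 and Bcl2 and a tail of genes near 0 in Ly6D+Gfra2+.

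B-lineage transcription factors were the first group examined. Of 25 such genes, 2 rose (Pou2af1 and Foxo1) and 0 fell, beside 0.204% of all genes in each direction. The median log2 fold change of the 25 was 0.20, against 0.03 over all genes, and with scaling by library size alone the values were 0.03 and -0.15. With the 7 libraries only the median of the 25 was 0.39. At an unadjusted p under 0.05 there were 13 members, beside 1677 of all 12722 genes. DESeq2 called 4 members higher and 1 lower, beside 221 and 325 of all genes, and limma voom called 4 higher, beside 28 of all genes. In 6 members all Ly6D+Gfra2+ libraries lay above all Ly6D+Gfra2- libraries and in 4 below, beside 4.0% and 5.71% of all genes.

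Pou2af1 encodes a coactivator that binds octamer factors on immunoglobulin promoters. It stood at 963, 1218 and 931 CPM in Ly6D+Gfra2+ and at 0.0649, 0.102, 1.12 and 45.0 CPM in Ly6D+Gfra2-. Ly6D+Gfra2- replicate 6 alone carried nearly all of the signal of its group, and the lowest Ly6D+Gfra2+ library was still far above it. Pou2af1 rose by 6.28 (SE 1.18; adjusted p = 0.0336), with 5.48 within prefix T (adjusted p = 0.116). Foxo1, a forkhead factor that acts upstream of the Rag genes and of the interleukin 7 receptor, stood at 639, 965 and 450 CPM against 138, 67.8, 193 and 222 CPM, again without overlap. It rose by 1.82 (SE 0.38; adjusted p = 0.0471), with a value of 1.71 within prefix T (adjusted p = 0.119).

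Ebf1, Pax5 and Spib showed full separation of the libraries but did not pass with all 13 libraries. Ebf1 and Spib lie outside the rule that names genes and were chosen after their values were seen. Ebf1, which starts the B-cell programme, stood at 891, 876 and 754 CPM against 165, 92.7, 161 and 128 CPM. The log2 fold change was 2.80 (SE 0.68; adjusted p = 0.0814), and the adjusted p was 0.0269 without the library labelled Ly6D-Gfra2- replicate 3, 0.0365 within prefix T and 0.0244 with the 7 libraries only. Pax5, which fixes B-cell identity, stood at 90.5, 53.8 and 101 CPM against at most 0.71 CPM in every Ly6D+Gfra2- library. The log2 fold change reached 8.63 (SE 1.89; adjusted p = 0.0569), and the library labelled Ly6D-Gfra2- replicate 3 held 6.62 CPM, more than any Ly6D+Gfra2- library. Without that library the value was 7.19 (adjusted p = 0.0512), while limma voom (adjusted p = 0.0085) and DESeq2 (adjusted p = 0.011) with all libraries passed.

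Spib, an Ets factor used by plasmacytoid dendritic cells and B cells, went the other way. It had 2 counts in the 3 Ly6D+Gfra2+ libraries together and 271, 10.3, 44.2 and 28.6 CPM in Ly6D+Gfra2-. The ratio of the pooled counts was 1212 (95% counting interval 335 to 10013). Such ratios, here and below, have no prefix term and can differ from the edgeR fit, which gives the adjusted p. The fit gave a log2 fold change of -8.04 (adjusted p = 0.0952, or 0.0134 without the library labelled Ly6D-Gfra2- replicate 3). Irf8, a factor of dendritic cell and B-cell precursors that was also chosen after its values were seen, stood at 94.0, 180 and 266 CPM against 594, 832, 706 and 902 CPM (log2 fold change -1.69, SE 0.43; adjusted p = 0.0986). Irf4, its relative in pre-B and plasma cells, named in the same way, was at 104, 90.8 and 61.2 CPM against 19.2, 10.9, 14.5 and 48.7 CPM (1.85, SE 0.83; adjusted p = 0.351). The pair therefore differed in sign, with no overlap of the libraries in either gene. Myb, a factor of progenitors in general, was at 1781 ± 459 CPM (SD, n = 3) against 1253 ± 247 CPM (n = 4) with overlapping libraries (0.77, SE 0.18; adjusted p = 0.0716).

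The next group held genes of the early B-cell surface and the pre-B-cell receptor. Of 24 listed genes 23 were tested, 3 rose (Igll1, Cd79a and Cd24a) and 0 fell, beside 0.204% of all genes in each direction. The list's median log2 fold change was 1.05, against 0.03 over all genes. All Ly6D+Gfra2+ libraries lay above all Ly6D+Gfra2- libraries in 9 of the 23 and below them in 1, beside 4.0% and 5.71% of all genes. Cd24a, a glycoprotein on the surface of precursor B cells, stood at 1373, 1172 and 938 CPM against 554, 484, 384 and 264 CPM and rose by 1.87 (SE 0.27; adjusted p = 0.00424). It was called whichever library was left out, but not within prefix T (adjusted p = 0.109) or with the 7 libraries only (adjusted p = 0.0615). Cd79a, the signalling chain of the B-cell receptor, stood at 121, 84.6 and 254 CPM against 1.30, 3.96, 5.60 and 6.6 CPM, and rose by 5.04 (SE 0.84; adjusted p = 0.0159). Its call did not hold within prefix T (adjusted p = 0.0546) or with the 7 libraries only (adjusted p = 0.118).

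Igll1 and the Vpreb genes encode the surrogate light chain, which pairs with the first heavy chain in the pre-B-cell receptor. Igll1 stood at 98.3, 165 and 65.8 CPM in Ly6D+Gfra2+, and the 4 Ly6D+Gfra2- libraries held 1 count together. The ratio of the pooled counts was 6008 (95% counting interval 1077 to 237369). The log2 fold change of the fit was 10.5 (SE 1.72; adjusted p = 0.0314), and Igll1 also passed within prefix T (adjusted p = 0.0452). Vpreb1 stood at 37.1, 42.0 and 20.4 CPM against 13.4, 0.102, 0.187 and 1.01 CPM, and Vpreb2, a near-identical copy with which it may share counts, at 12.3, 10.8 and 36.3 CPM against 0, 1.37, 0.84 and 1.12 CPM. Vpreb3, a chaperone of the receptor, was at 94.3, 87.6 and 72.8 CPM against at most 2.44 CPM. Vpreb1, Vpreb2 and Vpreb3, chosen after their values were seen, separated the groups in every library, yet none passed, with adjusted p of 0.256 for Vpreb1, 0.254 for Vpreb2 and 0.214 for Vpreb3.

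Blnk and Blk of the same list, and Tnfrsf13c of the mature B-cell list, did not pass. Blnk, the adaptor that links the receptor kinases to their targets, stood at 350, 605 and 657 CPM against 303, 327, 292 and 204 CPM (1.42, SE 0.38; adjusted p = 0.111). Blk, a Src-family kinase chosen after its values were seen, was at 113 ± 3.71 CPM (SD, n = 3) against 76.0 ± 19.2 CPM (n = 4), with a log2 difference of 1.05 (SE 0.61; adjusted p = 0.489). Tnfrsf13c, the receptor for the survival factor BAFF, was at 152, 113 and 126 CPM against 86.2, 90.2, 76.1 and 57.7 CPM (1.01, SE 0.35; adjusted p = 0.217). In these 3 genes the libraries of the groups did not overlap.

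**Figure D2:**
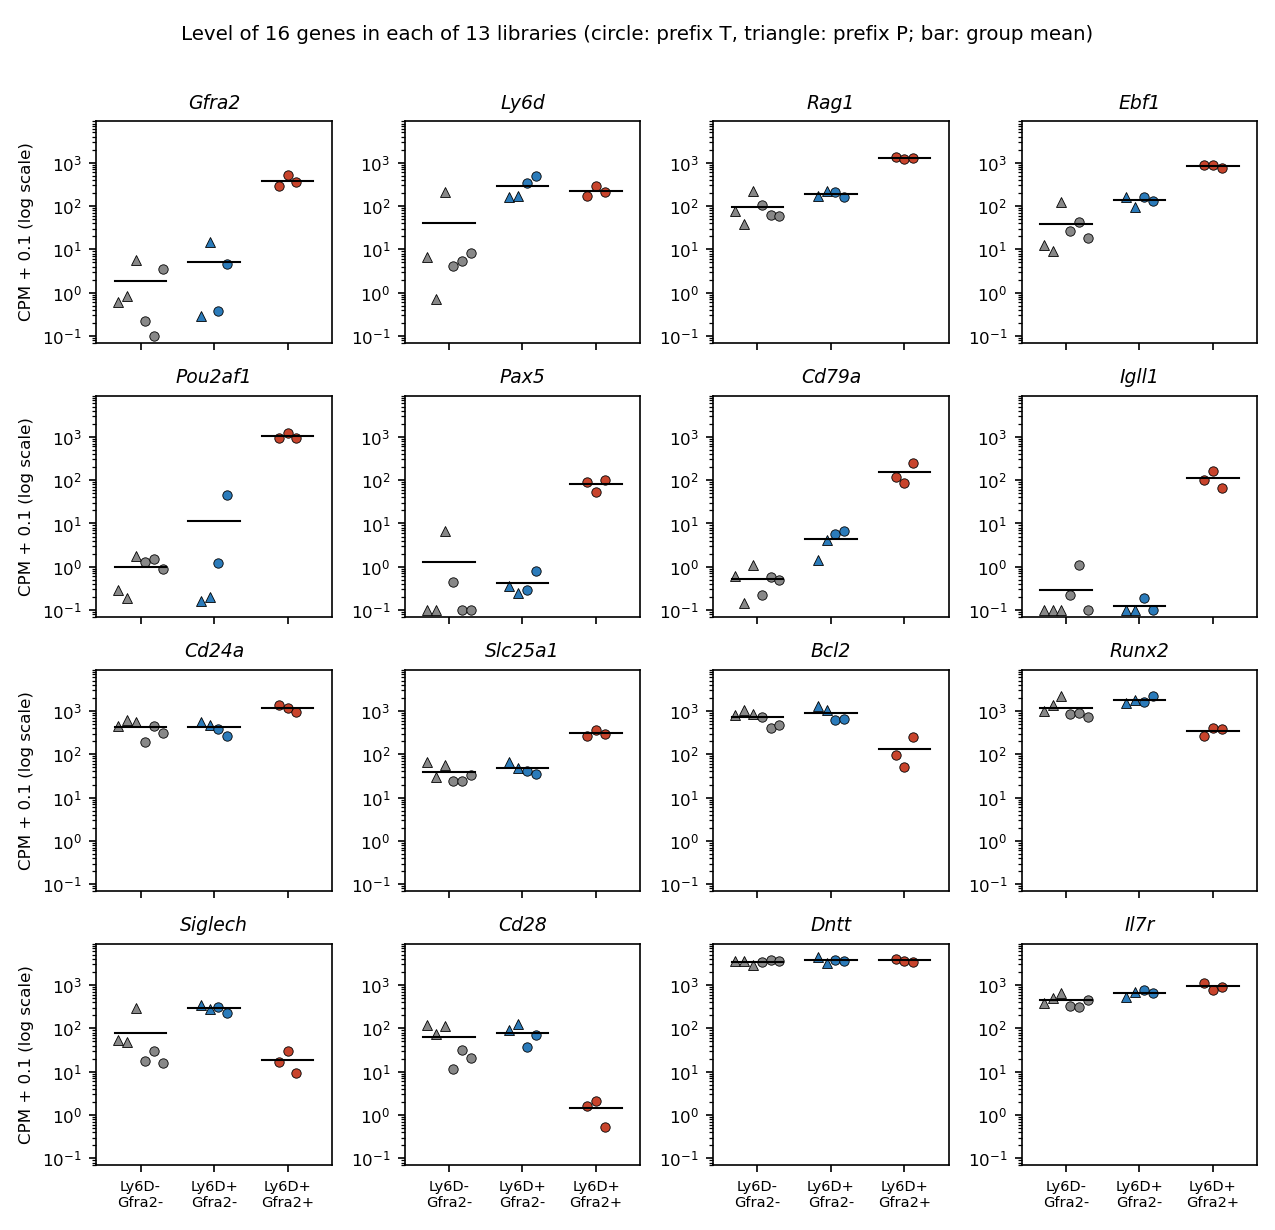
Each panel shows 1 gene, with CPM plus 0.1 on a log axis, each of the 13 libraries as a point (circles prefix T, triangles prefix P) and the group mean as a bar. Gfra2, Rag1, Ebf1, Pou2af1, Pax5, Cd79a, Igll1, Cd24a and Slc25a1 lie higher in all 3 Ly6D+Gfra2+ libraries than in all 4 Ly6D+Gfra2- libraries, Bcl2, Runx2, Siglech and Cd28 lie lower, and Ly6d, Dntt and Il7r overlap.

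From the B-lineage and V(D)J lists, the 4 called genes with the highest level in Ly6D+Gfra2+ and an entry in the RefSeq promoter table were taken. Whether their levels vary together was not tested. Their promoters are shown here. Each runs from 250 bases before to 50 bases after the annotated start, 5′ to 3′ on the gene's strand, in assembly GRCm38.p6, and capitals mark motif matches. The positions are chr2:101649483-101649782 on the minus strand for Rag1 and chr9:51213440-51213739 on the plus strand for Pou2af1. Those of Foxo1 and Cd79a are chr3:52268087-52268386 and chr7:24897247-24897546, both on the plus strand.
Rag1: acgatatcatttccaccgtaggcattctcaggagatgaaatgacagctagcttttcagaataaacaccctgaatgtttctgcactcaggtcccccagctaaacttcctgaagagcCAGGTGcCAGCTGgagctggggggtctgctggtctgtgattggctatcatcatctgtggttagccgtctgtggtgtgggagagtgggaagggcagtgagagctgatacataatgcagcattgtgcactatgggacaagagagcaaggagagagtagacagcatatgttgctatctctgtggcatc
Pou2af1: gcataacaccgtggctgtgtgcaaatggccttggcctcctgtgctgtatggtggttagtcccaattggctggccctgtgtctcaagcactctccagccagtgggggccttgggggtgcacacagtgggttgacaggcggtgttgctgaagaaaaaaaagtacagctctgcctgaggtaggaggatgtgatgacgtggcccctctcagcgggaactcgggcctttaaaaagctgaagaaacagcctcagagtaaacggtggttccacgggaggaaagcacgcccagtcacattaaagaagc
Foxo1: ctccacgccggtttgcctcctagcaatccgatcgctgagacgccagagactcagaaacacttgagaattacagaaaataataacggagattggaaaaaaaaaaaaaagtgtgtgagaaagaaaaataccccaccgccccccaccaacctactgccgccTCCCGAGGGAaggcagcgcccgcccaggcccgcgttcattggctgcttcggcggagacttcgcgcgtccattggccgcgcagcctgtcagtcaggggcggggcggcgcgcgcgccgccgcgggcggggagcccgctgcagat
Cd79a: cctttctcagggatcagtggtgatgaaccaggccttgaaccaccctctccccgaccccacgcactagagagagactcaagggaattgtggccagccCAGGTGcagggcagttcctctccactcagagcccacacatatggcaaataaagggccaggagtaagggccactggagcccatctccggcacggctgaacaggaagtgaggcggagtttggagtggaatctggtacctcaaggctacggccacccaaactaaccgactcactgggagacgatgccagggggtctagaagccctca
Both strands were searched for 5 motifs, namely the E boxes CAGCTG and CAGGTG (bound by factors such as E2A), the octamer ATTTGCAT, the forkhead motif GTAAACA, and the early B-cell factor motif, TCCC followed by 2 bases of any kind and GGGA. Rag1 held both E boxes, starting 135 bases (CAGGTG) and 128 bases (CAGCTG) before the start, with 1 base between them. Cd79a held CAGGTG 154 bases before the start, and Foxo1 held the early B-cell factor motif 92 bases before it. No match lay in the Pou2af1 window. Among the 32851 promoters of the same length in the table, 16.3% held CAGCTG, 20.2% held CAGGTG, 1.74% the octamer, 3.65% the forkhead motif and 0.904% the early B-cell factor motif.

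Within the machinery of V(D)J recombination, which joins immunoglobulin gene segments, Rag1 was the 1 gene called. Of 15 listed genes 14 were tested, 1 rose (Rag1) and 0 fell, beside 0.204% of all genes in each direction. The median log2 fold change was 0.15, and it was -0.02 with scaling by library size alone and 0.37 with the 7 libraries only. Rag1, the catalytic subunit of the recombinase, stood at 1384, 1229 and 1315 CPM against 169, 222, 208 and 158 CPM. The 3 high values lay within 1 narrow range and the 4 low ones within another, and Rag1 rose by 2.98 (SE 0.45; adjusted p = 0.00649). Its call held within prefix T (2.83, adjusted p = 0.00843), with the 7 libraries only (2.84, adjusted p = 0.00402) and without any single library. Rag2, the other subunit, was at 721, 444 and 664 CPM against 493, 272, 353 and 194 CPM, with overlap between replicates (0.95, SE 0.31; adjusted p = 0.206). Dntt, the polymerase that adds untemplated bases at the joints and a gene chosen after its values were seen, was at 3694 ± 346 CPM (SD, n = 3) against 3749 ± 526 CPM (n = 4), with a log2 difference of -0.04 (SE 0.14; adjusted p = 0.946). The difference between Rag1 and Rag2 or Dntt in fold change was not tested.

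Bcl2 fell, while the receptors that lymphoid progenitors depend on did not pass the test. Of 15 genes of cytokine receptors and their signalling, 0 rose and 1 fell (Bcl2), beside 0.204% of all genes in each direction. The list had a median log2 fold change of 0.32, or 0.15 with scaling by library size alone. Bcl2 (chromosome 1, 106538176 to 106714290), which blocks apoptosis, stood at 94.3, 51.1 and 245 CPM against 1319, 1045, 608 and 660 CPM. The highest Ly6D+Gfra2+ library lay below the lowest Ly6D+Gfra2- library, and Bcl2 fell by 2.32 on the log2 scale (SE 0.40; adjusted p = 0.0224). It was the 1 gene that limma voom called lower, and within prefix T the value was -2.29 (adjusted p = 0.193). Il7r, the receptor for interleukin 7, was at 926 ± 185 CPM (SD, n = 3) against 665 ± 89.9 CPM (n = 4), with overlap (0.58, SE 0.25; adjusted p = 0.334). The log2 fold changes of Flt3 and Kit, receptors of early progenitors, were -0.11 (SE 0.18; adjusted p = 0.855) and 0.32 (SE 0.35; adjusted p = 0.758). These 3 receptors were chosen after their values were seen.

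Gfra2 was the 1 called gene of the GDNF receptor family, beside 0.204% of all genes called higher. Cells were sorted on Gfra2, so its call checks the labels only and is no result about the family. Ret, the signalling partner in neurons, had 0 counts in all 13 libraries. The ligand genes Nrtn, Gdnf and Artn, the receptor gene Gfra3 and the alternative partner gene Ncam1 had 0 counts in all 3 Ly6D+Gfra2+ libraries, where 3 counts would be at most 0.323 CPM of the unscaled library. With Ret, 6 of the 10 listed genes had 0 counts in Ly6D+Gfra2+, and 6 of the 10 had 0 counts in Ly6D+Gfra2-. Gfra1, the receptor for GDNF itself, was detected in all 7 libraries, at 190, 7.42 and 114 CPM against 6.75, 31.2, 87.5 and 76.1 CPM, with overlap (0.69, SE 0.82; adjusted p = 0.777). Only Gfra1 and Gfra2 of the 10 listed genes had enough counts to be tested.

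Slc25a1, the mitochondrial carrier that exports citrate for lipid synthesis, had the smallest adjusted p of all genes. It lies on chromosome 16, 17925211 to 17928219 in assembly GRCm38.p6, which all coordinates here follow, and stood at 268, 359 and 290 CPM against 67.9, 47.1, 41.4 and 35.5 CPM and rose by 3.09 (SE 0.36; adjusted p = 0.00172). The groups were far apart, and the call held within prefix T (2.98, adjusted p = 0.0213) and without any single library. Pnp (chromosome 14, 50944303 to 50953412), which breaks down purine nucleosides, stood at 528, 619 and 461 CPM against 89.5, 85.9, 149 and 148 CPM and rose by 1.91 (SE 0.27; adjusted p = 0.00424). A closely similar neighbour, Pnp2, may share some of its counts. Atp1b3, a subunit of the sodium pump, rose by 1.65 (SE 0.26; adjusted p = 0.00984), from 346 ± 41.7 CPM (SD, n = 4) to 996 ± 180 CPM (n = 3). Chchd10, a mitochondrial protein, was at 141, 119 and 97.5 CPM against at most 17.8 CPM and rose by 3.63 (SE 0.73; adjusted p = 0.0428). Pprc1, a coactivator of mitochondrial gene expression, rose by 1.79 (SE 0.34; adjusted p = 0.0336).

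Dock9 (chromosome 14, 121538365 to 121797900), an activator of the GTPase Cdc42, stood at 142, 223 and 168 CPM against 19.3, 14.2, 35.7 and 26.0 CPM and rose by 2.55 (SE 0.39; adjusted p = 0.00679). Its call held without any single library, but not within prefix T (adjusted p = 0.0833) or with the 7 libraries only (adjusted p = 0.395). Pde2a (chromosome 7, 101421691 to 101512829), which degrades cyclic nucleotides, stood at 331, 591 and 406 CPM against 36.6, 56.3, 52.2 and 33.3 CPM and rose by 2.96 (SE 0.60; adjusted p = 0.0428). Its call held within prefix T (3.36, adjusted p = 0.0452) and with the 7 libraries only (3.37, adjusted p = 0.0244). Gab1, a docking adaptor of the PI3 kinase pathway, was at 183, 109 and 107 CPM against 8.24, 21.6, 7.37 and 15.3 CPM and rose by 3.37 (SE 0.63; adjusted p = 0.0336). It was the 1 called member among 19 PI3 kinase adaptor and phosphatase genes, beside 0.204% of all genes called higher. Their median log2 fold change was 0.38, or 0.19 with scaling by library size alone and 0.20 with the 7 libraries only. Inpp5d, a phosphatase that acts on the lipid product of PI3 kinase, differed by 0.73 on the log2 scale (SE 0.22; adjusted p = 0.157) and did not pass.

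Cecr2, a chromatin-remodelling factor, stood at 398, 454 and 553 CPM against 43.1, 46.8, 44.1 and 16.3 CPM and rose by 4.41 (SE 0.86; adjusted p = 0.0364). Parp1, a sensor of DNA breaks, stood at 1617, 1448 and 1474 CPM against 629, 869, 659 and 920 CPM and rose by 1.12 (SE 0.21; adjusted p = 0.0336). It was called in 4 of the 13 fits that left out 1 library. Parp1 did not pass within prefix T (adjusted p = 0.232) or with the 7 libraries only (adjusted p = 0.646), but passed by limma voom (adjusted p = 0.00619). Nsun2, an RNA methyltransferase, rose by 1.63 (SE 0.31; adjusted p = 0.0336). Usp24, a deubiquitinating enzyme, rose by 1.06 (SE 0.21; adjusted p = 0.0428). For 2900026A02Rik, a gene without an assigned role here, the rise was 1.77 (SE 0.30; adjusted p = 0.0206), from 206 ± 55.9 CPM (SD, n = 4) to 717 ± 187 CPM (n = 3). Hs6st1, a heparan sulfate sulfotransferase, was called within prefix T (2.89, SE 0.44; adjusted p = 0.0452) but not with 13 libraries (2.26, SE 0.54; adjusted p = 0.0791), and was named after its values were seen.

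Gimap4, a GTPase of the immunity-associated family expressed in lymphocytes, stood at 195, 299 and 233 CPM against 1.62, 3.20, 19.98 and 31.1 CPM. The prefix P libraries of Ly6D+Gfra2- were the lowest, at 1.62 and 3.20 CPM, and all 4 lay below every Ly6D+Gfra2+ library. It rose by 4.03 (SE 0.74; adjusted p = 0.0332) and by 3.24 within prefix T (adjusted p = 0.0365). All 8 tested members of the family had a positive log2 fold change, with a median of 0.95 (0.76 with scaling by library size alone), beside 6497 positive values among all 12722 genes. The 1 called member stands beside 0.204% of all genes called higher. Gimap6 was at 238, 389 and 348 CPM against 188, 122, 210 and 217 CPM (0.61, SE 0.28; adjusted p = 0.351). The genes are neighbours on chromosome 6. The number of positive members is a description of these libraries and was not tested.

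Among genes of plasmacytoid dendritic cells, an alternative fate of lymphoid progenitors, Runx2 fell and Siglech was lower in every library. Of 18 listed genes 16 were tested, 0 rose and 1 fell (Runx2), beside 0.204% of all genes in each direction. The median log2 fold change was -0.67, and in 8 of the 16 all Ly6D+Gfra2+ libraries lay below all Ly6D+Gfra2- libraries, beside 5.71% of all genes. In bulk libraries fewer cells of a type and less RNA per cell cannot be told apart. DESeq2 called 4 members lower and limma voom 0, and 6 had an unadjusted p under 0.05. Of all 12722 genes DESeq2 called 325 lower and 1677 had an unadjusted p under 0.05. The summed level of the listed genes was 1695 to 2456 CPM in Ly6D+Gfra2+, 4026 to 4635 CPM in Ly6D+Gfra2- and 2248 to 4558 CPM in Ly6D-Gfra2-, and 2 genes, Klk1 and Cd209d, had 0 counts in Ly6D+Gfra2+. Runx2 (chromosome 17, 44495987 to 44814797), a transcription factor these cells use for their exit from bone marrow, stood at 265, 397 and 381 CPM against 1502, 1812, 1640 and 2172 CPM. It fell by 2.17 on the log2 scale (SE 0.30; adjusted p = 0.00384), and by 2.46 within prefix T (adjusted p = 0.00303). Runx2 was called whichever library was left out, but not by limma voom (adjusted p = 0.102).

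Siglech, a lectin receptor that defines plasmacytoid dendritic cells, stood at 16.6, 29.6 and 9.10 CPM against 346, 276, 319 and 230 CPM. Every Ly6D+Gfra2+ library was far below every Ly6D+Gfra2- library, and the log2 fold change was -3.33 (SE 0.74; adjusted p = 0.0606). Siglech passed within prefix T (-3.91, adjusted p = 0.0365), with the 7 libraries only (-3.90, adjusted p = 0.0244) and without the library labelled Ly6D-Gfra2- replicate 3 (-3.62, adjusted p = 0.00297), which held 299 CPM. Tcf4, the master regulator of the lineage, was at 368, 406 and 463 CPM against 600, 553, 662 and 793 CPM (-0.71, SE 0.21; adjusted p = 0.169). Cox6a2, a respiratory subunit found in these cells, was at 20.8, 27.8 and 96.6 CPM against 495, 170, 169 and 126 CPM (-1.63, SE 0.52; adjusted p = 0.193). Both were chosen after their values were seen, and neither overlapped between the groups. Other marker genes of the lineage did not all share this, since Bst2 was at 11.6 to 22.2 CPM against 16.4 to 35.1 CPM and Ccr9 at 38.1 to 47.3 CPM against 34.8 to 90.5 CPM, with overlap.

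Of the T-lineage and Notch genes, 13 of 21 were tested, 0 rose and 1 fell (Cd28), beside 0.204% of all genes in each direction. The median log2 fold change was -0.34, and it was -0.77 with the 7 libraries only and -0.74 within prefix T. Cd28, the costimulatory receptor of T cells, stood at 1.49, 2.03 and 0.433 CPM against 90.6, 125, 36.5 and 68.6 CPM and fell by 4.99 on the log2 scale (SE 0.67; adjusted p = 0.00384). Its call held without any single library, and within prefix T the value was -5.32 (adjusted p = 0.0884). By limma voom Cd28 did not pass (adjusted p = 0.394). Notch1, the receptor that directs progenitors to the T lineage, was at 697, 528 and 438 CPM against 1169, 985, 912 and 932 CPM, without overlap (-0.71, SE 0.19; adjusted p = 0.123). Tcf7, a T-lineage factor downstream of Notch, had 1 count in the 3 Ly6D+Gfra2+ libraries against 6.49, 1.67, 3.83 and 2.13 CPM, a ratio of 92.2 (95% counting interval 16.4 to 3659; adjusted p = 0.0784). DESeq2 called 4 members lower, beside 325 of all 12722 genes, and limma voom 0. The list summed to 934 to 1221 CPM in Ly6D+Gfra2+ and 1573 to 1727 CPM in Ly6D+Gfra2-. Cd3g, Ptcra and Cd7 had 0 counts in Ly6D+Gfra2+, and as many listed genes, 3 with Cd3g among them, had 0 counts in Ly6D+Gfra2-.

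None of the 10 tested NK and innate lymphoid genes was called by edgeR or limma voom, 4 had an unadjusted p under 0.05, and DESeq2 called 2 lower. Of all 12722 genes edgeR called 0.204% in each direction, 1677 had an unadjusted p under 0.05 and DESeq2 called 325 lower. The list summed to 152 to 263 CPM in Ly6D+Gfra2+ and 116 to 393 CPM in Ly6D+Gfra2-. In Ly6D+Gfra2+ 8 of its 18 genes had 0 counts, Ncr1, Tbx21 and Eomes among them, and in Ly6D+Gfra2- 3 did, Ncr1 among them. Nfil3, a factor required for NK cells, was at 0, 0 and 0.542 CPM against 16.7, 10.3, 3.83 and 10.4 CPM (-5.36, SE 1.30; adjusted p = 0.0814). Il2rb, the shared receptor chain for interleukins 2 and 15, had 3 counts in Ly6D+Gfra2+ and was at 2.21, 0.964, 29.2 and 27.8 CPM in Ly6D+Gfra2-. That is a ratio of 101 (95% counting interval 34.4 to 490; adjusted p = 0.116), and the prefix T libraries carried most of the signal in Ly6D+Gfra2-.

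Another 5 genes fell from levels well above 0. Gapt, a transmembrane adaptor that binds Grb2, stood at 1.03, 0 and 0.217 CPM against 99.8, 43.8, 36.1 and 85.4 CPM and fell by 6.81 on the log2 scale (SE 0.94; adjusted p = 0.00384). Its call held without any single library, but not within prefix T (adjusted p = 0.0833) or by limma voom (adjusted p = 0.319). Fcer1g, the signalling chain of several Fc and activating receptors, stood at 7.22, 27.3 and 6.50 CPM against 188, 116, 126 and 103 CPM and fell by 2.77 (SE 0.56; adjusted p = 0.0428). Tns1, a focal-adhesion protein, stood at 417, 280 and 506 CPM against 922, 801, 861 and 782 CPM and fell by 1.04 (SE 0.21; adjusted p = 0.0428). Tmem229b, a membrane protein, fell by 1.88 (SE 0.37; adjusted p = 0.0428), and Tctn1, a protein of the ciliary transition zone, by 2.59 (SE 0.50; adjusted p = 0.0364). Each of these 5 genes was lower in all 3 Ly6D+Gfra2+ libraries than in any Ly6D+Gfra2- library. In the 13 fits that each left out 1 library, Fcer1g was called in 2, Tns1 and Tctn1 in 3 and Tmem229b in 4. Within prefix T the adjusted p was 0.204 for Fcer1g and 0.241 for Tns1, Tctn1 and Tmem229b. Limma voom called none of these.

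A further set of lower genes was at or near 0 in Ly6D+Gfra2+. Among all 26 lower calls, 9 had 0 counts in all 3 libraries and 3 had 1 to 3 counts. Bounds set the 3 Ly6D+Gfra2+ libraries at 3 counts in total. Like the ratios, they have no prefix term and cover counting error only. Strip2, a component of a phosphatase complex, was at 32.6, 27.5, 28.5 and 60.9 CPM in Ly6D+Gfra2- and at least 307-fold lower in Ly6D+Gfra2+ (adjusted p = 0.0428). Acot11, a thioesterase of fatty acids, was at least 132-fold lower (adjusted p = 0.0336), S100a13 at least 125-fold (adjusted p = 0.0361), Cttn, which binds branched actin, at least 113-fold (adjusted p = 0.0364), Ebi3, a subunit of interleukins 27 and 35, at least 69.3-fold (adjusted p = 0.0336) and the ephrin receptor gene Epha7 at least 54.8-fold (adjusted p = 0.0428). Fry, a scaffold protein with 1 count in Ly6D+Gfra2+, was at 33.8, 48.7, 40.5 and 11.0 CPM in Ly6D+Gfra2-, a ratio of 956 (95% counting interval 171 to 37792; adjusted p = 0.00384). Its call held without any single library but not within prefix T (adjusted p = 0.0546), with the 7 libraries only (0.0967) or by limma voom (0.373). Limma voom called none of these genes near 0.

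Klhl30, also with 1 count, had a ratio of 354 (63.4 to 14004; adjusted p = 0.0428), and Cpt2, the mitochondrial enzyme of fatty acid import, was at 0.916, 0.12 and 0 CPM against 6.23, 31.9, 40.7 and 16.6 CPM (-6.10, SE 1.25; adjusted p = 0.0428). Ikzf2, a zinc-finger factor of lymphocytes, was at 0.344, 0 and 2.06 CPM against 1.88, 42.3, 41.7 and 38 CPM (-5.55, SE 1.12; adjusted p = 0.0428). Here Ly6D+Gfra2- replicate 1 lay at the level of Ly6D+Gfra2+, so the groups overlapped. Detection differed between these libraries as well, since 1317, 2167 and 961 of the 12722 tested genes were at 0 in the Ly6D+Gfra2+ libraries. In Ly6D+Gfra2- the numbers were 1470, 380, 603 and 538, with replicate 1 the highest, and its part in the calls near 0 was not tested. Each of these 10 genes was detected in Ly6D+Gfra2- replicate 1.

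**Figure D3:**
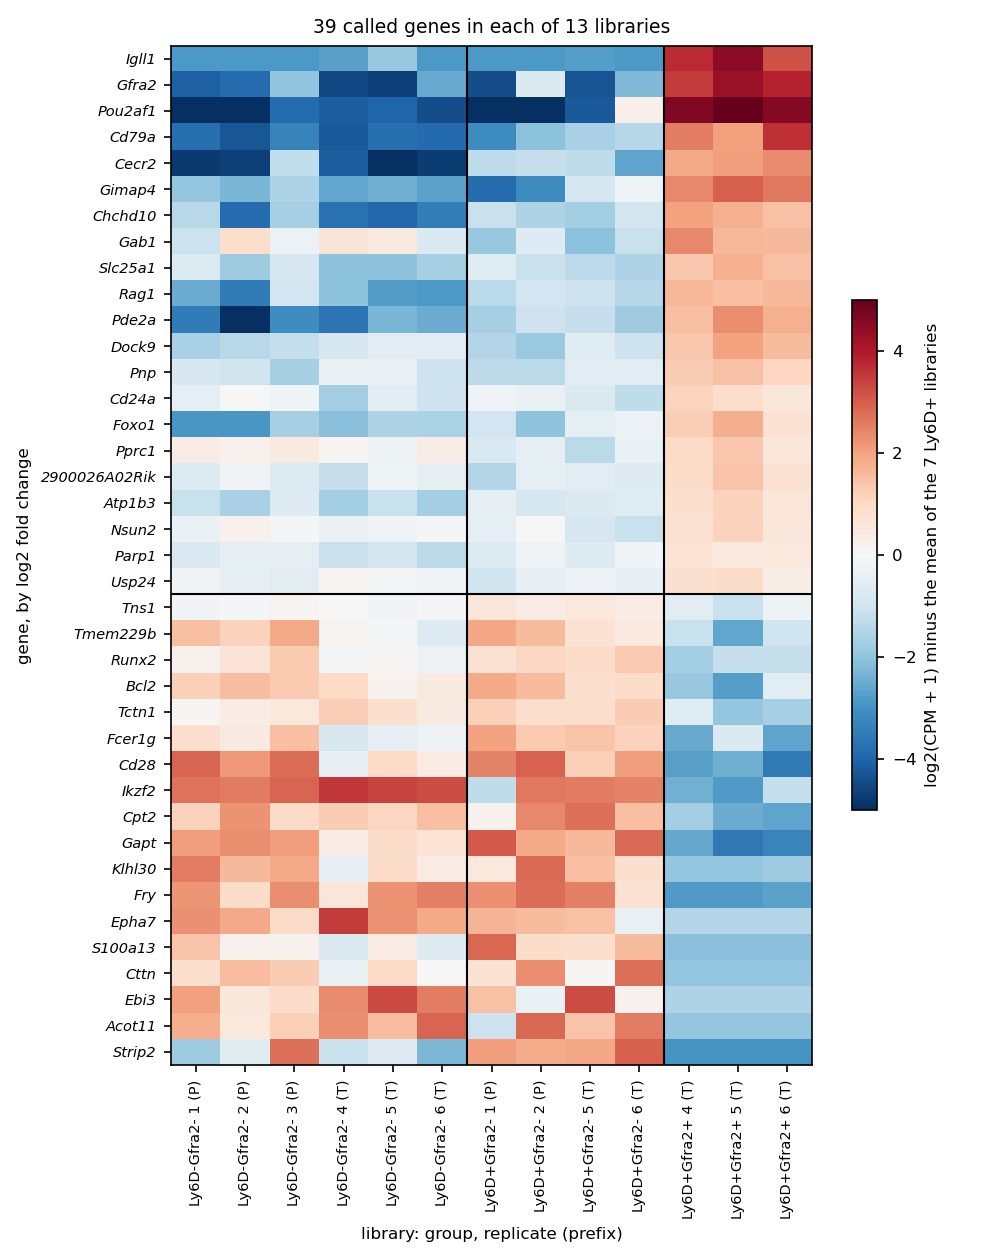
Rows are the 39 called genes named in the text, columns are the 13 libraries by group, replicate and prefix, and color is log2(CPM + 1) minus the mean of the 7 Ly6D+ libraries. The upper block of 21 genes is red in all 3 Ly6D+Gfra2+ libraries, the lower block of 18 is blue there, and Ikzf2 in Ly6D+Gfra2- replicate 1 has the color of the Ly6D+Gfra2+ libraries.

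The Ly6D-Gfra2- libraries give the level of these genes in cells with neither marker. For all 26 genes that rose, the mean of Ly6D-Gfra2- lay below the lowest Ly6D+Gfra2+ library, and for all 26 that fell it lay above the highest one. Of the 26 that fell, 21 had a lower mean in Ly6D-Gfra2- than in Ly6D+Gfra2-, and of the 26 that rose 14 did. The genes were called on their Ly6D+Gfra2- and Ly6D+Gfra2+ levels, which shapes all of these counts in advance. The share over all tested genes, 6462 of 12722, is therefore not a fair measure for them. In the order Ly6D-Gfra2-, Ly6D+Gfra2-, Ly6D+Gfra2+, the group means of Runx2 were 1170, 1782 and 348 CPM, and those of Fcer1g were 62.5, 133 and 13.7 CPM. Among rising genes Rag1 went from 93.4 to 189 to 1309 CPM, whereas Cd24a (425, 421 and 1161 CPM) and Slc25a1 (39.1, 48.0 and 306 CPM) differed less between the Gfra2-negative groups than their SDs. The library labelled Ly6D-Gfra2- replicate 3 is in these means, at 2155 CPM of Runx2, 131 CPM of Fcer1g and 222 CPM of Rag1. These orders of means were not tested.

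Lists of myeloid, stem cell, erythroid and mature B-cell genes held no edgeR call, the usual outcome for lists of this size when 0.204% of all genes are called in each direction. Of all 12722 genes 1677 had an unadjusted p under 0.05, and DESeq2 called 221 higher and 325 lower. Of 14 tested granulocyte and monocyte genes 0 were called by edgeR (3 at an unadjusted p under 0.05) or by limma voom, and DESeq2 called 1 lower. The median of this list was -0.47 with 13 libraries and 0.52 with the 7 libraries only, so its sign depends on the libraries in the fit, and the list summed to 379 to 912 CPM in Ly6D+Gfra2+ and 621 to 828 CPM in Ly6D+Gfra2-. Mpo, the peroxidase of neutrophil granules, was at 97.8, 312 and 309 CPM against 420, 289, 506 and 422 CPM (-0.79, SE 0.38; adjusted p = 0.383). Itgam, an integrin of myeloid cells, was at 19.7, 13 and 6.83 CPM against 26.2, 79.6, 50.03 and 97 CPM (-2.30, SE 0.53; adjusted p = 0.0711). Of 16 stem and multipotent progenitor genes 0 were called by edgeR (3 at an unadjusted p under 0.05) or limma voom, and DESeq2 called 2 lower. Cd34, a surface marker of stem and progenitor cells, was at 85.7, 64.7 and 38.9 CPM against 452, 192, 219 and 148 CPM, without overlap (-1.73, SE 0.42; adjusted p = 0.0791).

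Of 10 erythroid and megakaryocyte genes 0 were called by edgeR (2 at an unadjusted p under 0.05) or limma voom, and DESeq2 called 1 higher. The list's median was -0.28 with 13 libraries and 3.32 within prefix T, and it summed to 15.7 to 108 CPM in Ly6D+Gfra2+ and 54.3 to 160 CPM in Ly6D+Gfra2-. Of 10 mature B and plasma cell genes 0 were called by edgeR (3 at an unadjusted p under 0.05) or limma voom, and DESeq2 called 1 higher and 1 lower. Xbp1, a regulator of plasma cells and dendritic cells, was at 18, 50.9 and 16 CPM against 140, 98.7, 104 and 85.8 CPM, without overlap (-1.56, SE 0.46; adjusted p = 0.159). Ms4a1, the B-cell antigen CD20, had 0 counts in all 13 libraries.

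No listed cell-cycle or growth gene was called by edgeR, beside 0.204% of all genes in each direction, so 0 calls is the usual outcome for lists of this size. Over all 12722 genes 1677 had an unadjusted p under 0.05, and DESeq2 called 221 higher and 325 lower. Of 24 genes of G1/S and DNA replication 0 were called by edgeR (4 at an unadjusted p under 0.05) or limma voom, DESeq2 called 1 lower, and the median was -0.30 (-0.49 with scaling by library size alone). Tyms, which makes thymidylate, was at 44.8, 20.7 and 65.2 CPM against 185, 69.0, 115 and 98.7 CPM (-1.48, SE 0.47; adjusted p = 0.193). Cdk6, the D-cyclin kinase of lymphoid progenitors, was at 7909, 7838 and 8495 CPM against 6073, 5357, 6267 and 6207 CPM (0.34, SE 0.11; adjusted p = 0.200). Both showed no overlap, in opposite directions. Of 20 G2 and mitosis genes 0 were called by edgeR (3 at an unadjusted p under 0.05) or limma voom, DESeq2 called 1 higher and 1 lower, and the median was 0.05 (-0.13 with scaling by library size alone). Ccnb2, a mitotic cyclin, was at 219 ± 52.5 CPM (SD, n = 3) against 112 ± 11.1 CPM (n = 4), with a log2 difference of 0.94 (SE 0.30; adjusted p = 0.193), and Nusap1, a spindle protein, was at 113 ± 11.2 CPM against 208 ± 49.9 CPM, with -1.05 (SE 0.32; adjusted p = 0.181). Mki67, the marker of cycling cells, was at 2445 ± 242 CPM against 2524 ± 558 CPM (-0.15, SE 0.20; adjusted p = 0.806) and was chosen after its values were seen.

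Of 18 Myc and ribosome biogenesis genes 0 were called by edgeR (2 at an unadjusted p under 0.05) or limma voom, and DESeq2 called 1 higher. The median was 0.05, or -0.11 with scaling by library size alone. Myc itself was at 685, 989 and 1468 CPM against 748, 972, 531 and 619 CPM, with overlap (0.78, SE 0.27; adjusted p = 0.217), and Ncl, a nucleolar protein, was at 1549, 1927 and 2355 CPM against 1578, 1816, 1158 and 1224 CPM (0.68, SE 0.17; adjusted p = 0.0814). Immediate early genes, which respond to cell handling as well as to signals, held 0 calls among 15 by edgeR, DESeq2 or limma voom (1 at an unadjusted p under 0.05). Dusp1, a phosphatase of stress kinases, was at 210, 219 and 250 CPM against 9.74, 9.85, 140 and 145 CPM, where the prefix P libraries of Ly6D+Gfra2- were the low ones (1.11, SE 0.38; adjusted p = 0.216). Within prefix T its value was 0.66 (adjusted p = 0.517).

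Antigen presentation, interferon and homing genes held no edgeR calls either, beside 0.204% of all genes in each direction. Across the 12722 genes 1677 had an unadjusted p under 0.05, and DESeq2 called 221 higher and 325 lower. Of 10 MHC class II genes 0 were called by edgeR (3 at an unadjusted p under 0.05), DESeq2 or limma voom, with a median of 0.55. H2-Ob, a modulator of peptide loading in B cells, was at 609, 818 and 612 CPM against 586, 375, 465 and 427 CPM (0.59, SE 0.23; adjusted p = 0.287), and H2-DMa, a peptide-loading chaperone, at 215, 338 and 178 CPM against 172, 149, 168 and 115 CPM (0.93, SE 0.31; adjusted p = 0.210). Neither overlapped between the groups. Of 13 interferon response genes 0 were called by edgeR (1 at an unadjusted p under 0.05) or limma voom, and DESeq2 called 1 lower. Within that list Stat2, a signal transducer of the interferon receptor, was at 44.3, 45.0 and 53.1 CPM against 54.1, 142, 188 and 159 CPM (-1.60, SE 0.42; adjusted p = 0.109). Its partner Irf9 had a positive value (0.51, SE 0.29; adjusted p = 0.477), with no overlap of the libraries in either gene.

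Among 14 homing and adhesion genes 0 were called by edgeR (5 at an unadjusted p under 0.05) or limma voom, and DESeq2 called 1 higher. The median was 0.01, or -0.18 with scaling by library size alone. S1pr1, the receptor that lets lymphocytes leave tissues, was at 122, 41.9 and 27.0 CPM against 0.26, 0.711, 5.97 and 1.32 CPM. The libraries did not overlap, and the log2 fold change was 4.41 (SE 1.27; adjusted p = 0.146). Itga4, an integrin that holds progenitors in bone marrow, was at 1938 ± 147 CPM (SD, n = 3) against 1511 ± 212 CPM (n = 4), with a log2 difference of 0.50 (SE 0.15; adjusted p = 0.169).

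**Figure D4:**
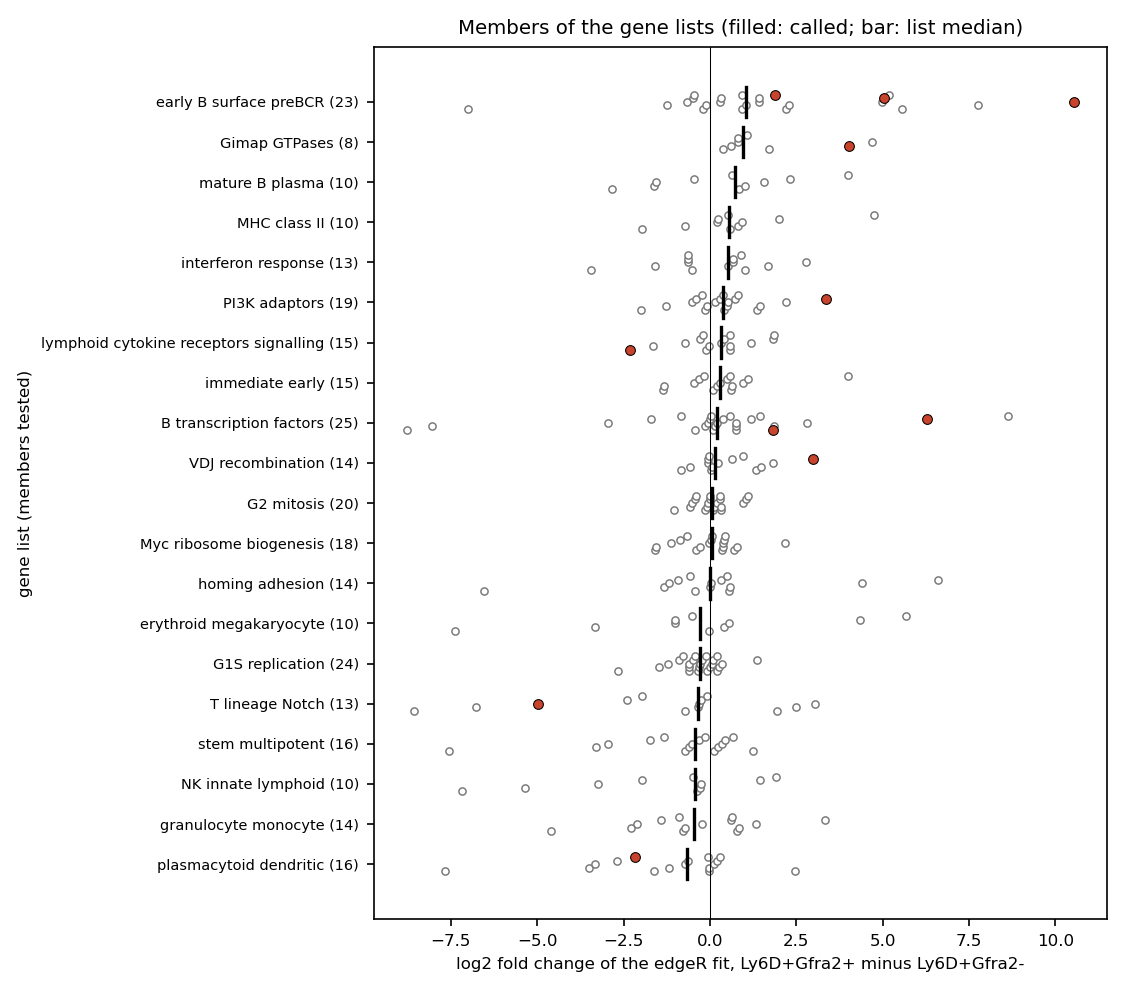
Each row is 1 of the 20 gene lists with at least 8 tested members, each point is a member placed by its log2 fold change of Ly6D+Gfra2+ over Ly6D+Gfra2-, filled points passed the test, and bars are list medians. The early B surface list has 3 filled points to the right and the highest median (1.05), and the plasmacytoid dendritic list has 1 filled point to the left and the lowest median (-0.67).

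Without the library labelled Ly6D-Gfra2- replicate 3, 37 genes were called (20 higher, 17 lower), and 32 of them were among the 52. Gfra2 then had an adjusted p of 0.0759, Pou2af1 of 0.0217, Cd79a of 0.0148, Cecr2 of 0.00297 and Bcl2 of 0.0271. Gab1 had 0.0406, Strip2 0.00648, Tctn1 0.0512, Cttn 0.0512 and Ikzf2 0.0641. Pde2a had 0.0716, Chchd10 0.0566, Usp24 0.0512, Epha7 0.0625, Cpt2 0.066 and Klhl30 0.0662. Genes above 0.05 in these values lost their call. All 52 genes kept their direction there and in every other refit in which they were tested, which is nearly fixed by the shared libraries. An exact permutation test of 3 libraries against 4 cannot go below a two-sided p of 0.0571, so a full separation of the libraries in 1 gene cannot pass by itself.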

How the data were processed

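Qiagen RNeasy micro kits gave the total RNA and NuGEN Ovation kits the libraries, per the labels' protocols. The deposited values are raw counts per RefSeq identifier, per the file headers, with 1 file per library. The submitters' processing notes list DESeq, FastQC, HISAT, HOMER, TopHat and mm10 with no role or order. Strand setting and the use of multimapping reads are not given in the sources used here, so overlapping and antisense genes cannot be told apart. Of 24072 identifiers, 23815 were named from the RefSeq table of GRCm38.p6 (mm10), 144 from GENCODE and 113 had no name. Promoters are RefSeq's in that assembly.

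Counts of all 13 libraries were fitted in R 4.3.3 with edgeR 4.0.16 (quasi-likelihood test), with terms for group and prefix and TMM scaling. Genes were kept by filterByExpr at a count of 10 or more and a total of 15 or more. The adjusted p is two-sided, by the method of Benjamini and Hochberg, over all 12722 genes. Alternatives were DESeq2 1.42.0, limma 3.58.1 (voom, quality weights), scaling by library size alone or by RLE, other filters, no prefix term, the replicate number as a block, only the 7 libraries, only prefix T, and each library left out in turn.

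Named genes are Gfra2, Ly6d, Rag1, Cd79a and Pax5, then called genes averaging 5 CPM or more in their higher group with no overlap within prefix T, by adjusted p, up to 20 in each direction, and from each list the called members and up to 4 with the smallest p. The comparison, its genes and the 22 gene lists (358 genes) were chosen with earlier results of these data known. Not every gene that the naming rule gives is reported here. Counting intervals are exact at 95%. Ratios and bounds use counts pooled over the libraries of each group, with no prefix term. The intervals and the bounds cover counting error only, since amplified reads are not separate molecules.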

Additional observations from a re-analysis of the deposited data

Results flagged for a closer look

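In 14 genes of the text, 1 of the 4 Ly6D+Gfra2- libraries lay apart from the other 3 by Dixon's criterion. Chance meets it in about 1 in 20 groups of normally distributed values, which counts near 0 are not. A gene with counts in only 1 of the 4 libraries, as Igll1, Cd3e, Klf1, Ncam1 and Tbx21 here, meets it automatically. The number of genes is therefore no measure of an excess. Ly6D+Gfra2- replicate 1 was the high library for Spib (271 CPM), Cox6a2 (495 CPM) and Vpreb1 (13.4 CPM) and the low one for Mki67 (1694 CPM) and Ikzf2 (1.88 CPM). Replicate 6 was the high library for Pou2af1 (45.0 CPM) and Strip2 (60.9 CPM) and the low one for Cecr2 (16.3 CPM). Replicate 5 was the 1 library with any count of Igll1 (0.0933 CPM) and the high one for Cdh5 (30.5 CPM). Cd3e was detected only in replicate 1 (0.974 CPM) of these 4 libraries, and Klf1 (7.31 CPM), Ncam1 (0.152 CPM) and Tbx21 (0.66 CPM) only in replicate 2.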

How the results depend on the processing

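The 52 calls became 546 with DESeq2 (221 higher, 325 lower), 29 with limma voom, 164 with no filter on low counts and 103 without the prefix term. They became 25 with the replicate number as a block, 8 with the 7 libraries only, 9 within prefix T and 4 within prefix T with the 2 groups only. Leaving out 1 library gave between 12 and 184. The replicate block shared 20 calls with the 52. The numbers were not used as pairs in the main fit. The deviations of same-numbered libraries of the 2 groups correlated at 0.00224 and -0.00932. Ly6D+Gfra2- has 2 libraries of prefix T, whose deviations mirror each other, so these values cannot show whether pairs exist. Same-numbered libraries share a label ending, S5 or S6, that the labels do not explain. Of 934 values of the 39 called genes of the text under alternatives, 934 kept their direction and 389 lost the call, and of 1124 values of the 47 other genes 68 passed. With single libraries left out, the log2 fold change of Ly6d ranged from -0.805 to 0.628, the log2 fold change of Gfra1 from -0.0814 to 1.24, the log2 fold change of Flt3 from -0.224 to 0.0140 and the log2 fold change of Dntt from -0.112 to 0.0375, so their signs turned. That of Flt3 also turned with no prefix term (0.0183), and that of Dntt with the 7 libraries only (0.0257) and within prefix T (0.0163, and 0.0161 with the 2 groups only). The cause was not tested.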
